A study of Homo sapiens with 8 samples.

Results

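The HOX cluster genes are the protein-coding genes with a symbol made of HOX, a cluster letter from A to D and a number. They were chosen by symbol and gene type from the deposited tables, which list a gene once it has a value above 0 in at least 1 library of the table, so that no other expression value entered the rule. The set itself was taken up with results of these comparisons known, and all counts of HOX genes are therefore given as a description. Of 34164 genes listed in either table, 37 were HOX genes, of 39 in the reference annotation (GENCODE release 44). All 37 were listed in the inhibitor table and 33 in the shRNA table. HOXB8, HOXD3, HOXD12 and HOXD13 were listed in the inhibitor table only, and HOXB1 and HOXD4 were not analysed here.

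RNA was sequenced from Kyse510 cells, an established human line of esophageal squamous cell carcinoma (ESCC), with 1 library for each of 8 conditions. In the pharmacological arm, wild-type cells were exposed for 2 days to vehicle (DMSO), to 7 µM SP2509 (an inhibitor of the histone demethylase LSD1), to 7 µM UNC0642 (an inhibitor of the histone methyltransferase G9a), or to SP2509+UNC0642, for which no separate dose is stated. In the genetic arm, cells stably carried a doxycycline (Dox)-inducible short hairpin against LSD1 (shLSD1) or G9a (shG9a) in the Tet-pLKO-puro vector, were kept for 14 days in puromycin, and were then grown without Dox (-Dox) or with Dox for 2 days (+Dox). The labels name the same line without Dox as each control, so that a +Dox library differs from its control by the drug as well as by the hairpin, and no library of Dox-treated cells without a targeting hairpin was used here. The study's account of this arm names cells with a nonsilencing hairpin (shNC) as the comparison instead, so what the control columns hold rests on the labels. The question behind the comparisons is which transcripts respond when LSD1 or G9a is inhibited or silenced.

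HOX genes encode homeodomain transcription factors that give cells their position along the body axis. In each of the 4 clusters the genes lie in the order in which they are used from head to tail, and genes with the same number in different clusters (a paralog group) have the most similar proteins. Low-numbered genes are called anterior (groups 1 to 3), followed by central (4 to 8) and posterior (9 to 13). HOX proteins bind DNA together with cofactors of the PBX and MEIS families. The clusters are classic targets of chromatin regulators, with the Trithorax-type methyltransferase KMT2A (MLL) keeping them active and the Polycomb complexes keeping them silent. LSD1 (gene KDM1A) removes methyl groups from histone H3 and G9a (gene EHMT2) adds them.

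With respect to levels, 22 of the 37 HOX genes had at least 1 FPKM (fragments per kilobase of transcript, scaled to library size, a level per length) in at least 1 library, and 15 stayed below 1 FPKM in all libraries that list them. HOXA2 (highest value 1.08 FPKM) and HOXB13 (0.949 FPKM) were the members just inside and just outside this limit. By cluster, 9 of 11 HOXA genes (chromosome 7), 6 of 9 HOXB genes (chr17:48540894-48729178, GRCh38) and 7 of 9 HOXC genes (chr12:53938765-54056030) reached it. None of the 8 listed HOXD genes (chr2:176092891-176190907) did, and their highest value was 0.386 FPKM.

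The most abundant HOX transcript in each of the 8 libraries was that of HOXC13 (ENSG00000123364, chr12:53938765-53946544), a posterior gene known for its role in hair and nail. It stood at 18.6 FPKM in vehicle cells, 10.6 with SP2509, 7.98 with UNC0642 and 6.01 with SP2509+UNC0642. It stood at 13.5 and 25.1 FPKM in shLSD1 cells lacking or given Dox, and at 12.8 and 26.5 FPKM in the matching shG9a cells. The second place was held by HOXB7 or HOXA9 in each library. In the vehicle library HOXC13 (exact 95% Poisson interval 17.2 to 20.0 FPKM) lay above HOXA9 (9.42 FPKM, 8.57 to 10.3), which lay above HOXB7 (6.64 FPKM, 5.65 to 7.76). With SP2509+UNC0642 the order was not resolved, since HOXC13 (5.29 to 6.82 FPKM) and HOXA9 (4.87 to 6.18 FPKM) overlapped. Posterior genes held 64.5% of the summed HOX FPKM with vehicle and 55.3% to 67.1% in the other libraries.

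**Figure D1:**
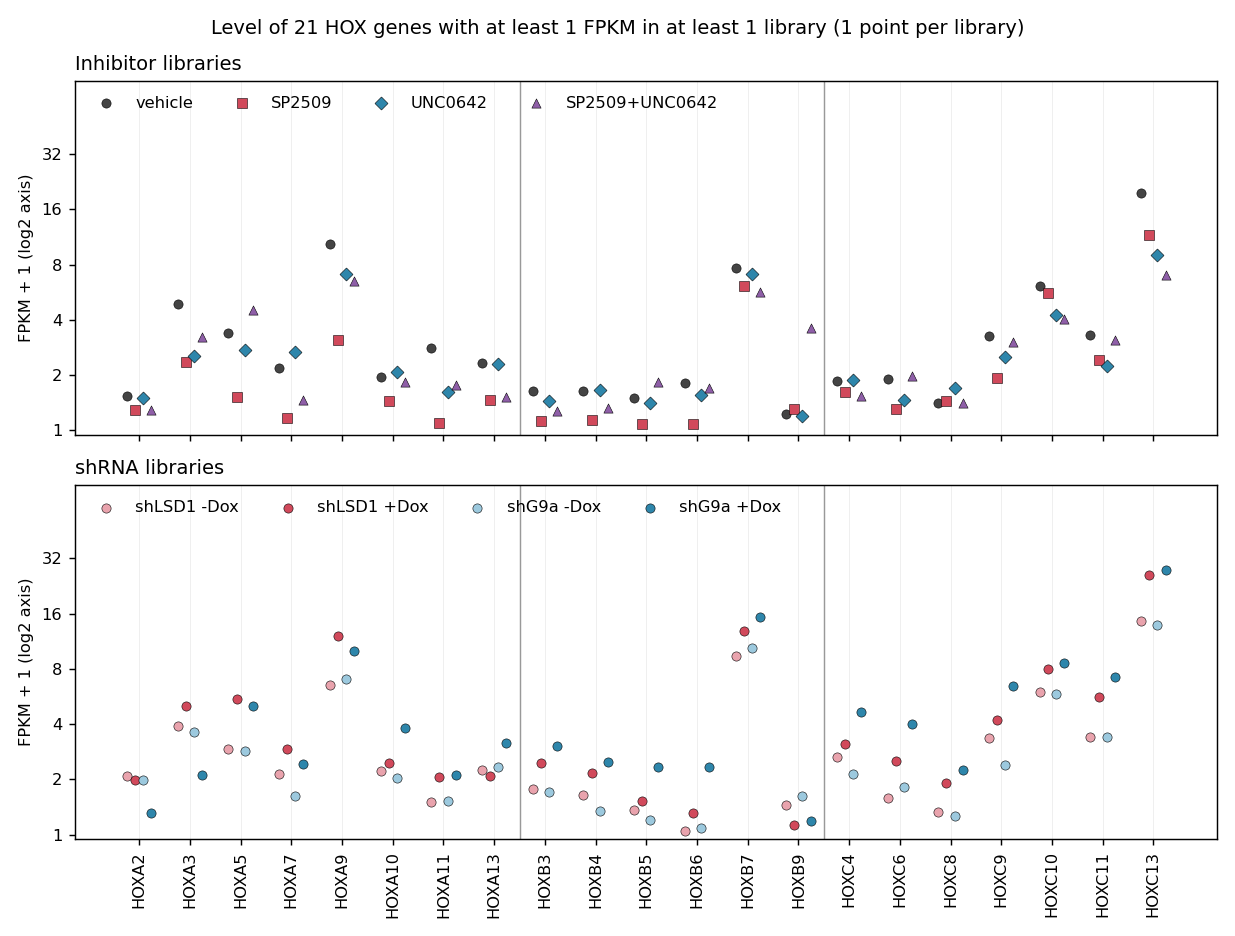
Level of 21 HOX genes with at least 1 FPKM in at least 1 library, as FPKM + 1 on a log2 axis, ordered by cluster and number, with 1 point per library and vertical lines between clusters. HOXC13 is the highest gene in both panels, from 6.01 to 18.6 FPKM in the inhibitor libraries and from 12.8 to 26.5 FPKM in the shRNA libraries.

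Promoters were listed in RefSeq (GRCh38.p14, 250 bases before to 50 bases after a start) for 18 of the 37 HOX genes, with 25 entries in all. The following 4 are those of the HOXA genes that have 1 listed start and were lower with SP2509, and they are shown because these genes moved together in that comparison. They lie at chr7:27156626-27156925 (HOXA7), chr7:27165488-27165787 (HOXA9), chr7:27185183-27185482 (HOXA11) and chr7:27200042-27200341 (HOXA13). They read 5′ to 3′ on the minus strand. Capitals mark the letters CCAAT (the core of the box bound by NF-Y) or TATAAA (those of a TATA box) on either strand. The letters are marked at any distance from the start, so a mark is a match and not a known site.
HOXA7: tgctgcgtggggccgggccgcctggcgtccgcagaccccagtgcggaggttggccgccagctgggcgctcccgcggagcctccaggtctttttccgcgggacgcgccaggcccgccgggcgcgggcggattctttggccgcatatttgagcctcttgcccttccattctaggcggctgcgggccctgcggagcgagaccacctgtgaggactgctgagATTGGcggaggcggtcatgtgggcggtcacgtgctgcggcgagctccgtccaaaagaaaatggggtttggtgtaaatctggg
HOXA9: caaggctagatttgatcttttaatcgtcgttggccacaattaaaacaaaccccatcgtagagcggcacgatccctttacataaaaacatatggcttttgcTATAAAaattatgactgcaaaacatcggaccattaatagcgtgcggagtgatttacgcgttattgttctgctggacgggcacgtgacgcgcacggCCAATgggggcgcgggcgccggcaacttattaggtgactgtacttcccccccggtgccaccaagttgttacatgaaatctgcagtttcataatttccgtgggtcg
HOXA11: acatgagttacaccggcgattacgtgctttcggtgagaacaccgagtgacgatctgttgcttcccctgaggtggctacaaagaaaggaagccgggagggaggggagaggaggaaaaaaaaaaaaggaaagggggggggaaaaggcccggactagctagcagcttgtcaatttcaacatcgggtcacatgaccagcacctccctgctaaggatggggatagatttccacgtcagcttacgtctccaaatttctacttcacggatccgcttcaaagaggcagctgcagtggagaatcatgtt
HOXA13: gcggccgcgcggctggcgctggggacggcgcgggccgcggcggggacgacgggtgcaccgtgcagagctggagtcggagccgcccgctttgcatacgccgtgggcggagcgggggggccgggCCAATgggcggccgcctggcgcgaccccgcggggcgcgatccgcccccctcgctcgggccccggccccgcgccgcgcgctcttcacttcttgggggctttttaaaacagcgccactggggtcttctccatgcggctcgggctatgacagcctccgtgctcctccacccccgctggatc
Motifs were searched on both strands, and none of them lies within another. HOXA9 held CCAAT and TATAAA, HOXA7 and HOXA13 held CCAAT each, and no motif searched occurred in the HOXA11 window. The letters CCAAT were found in 64% of the 25 HOX entries and in 34.6% of all 35116 promoter entries of this length. The letters TATAAA were found in 20% of HOX entries and 11.5% of all entries. The HOX-PBX motif, searched as TGATNNAT, was found in 8% and 7.40%. The median number of CpG dinucleotides was 23 in HOX entries and 14 in all entries, with 44 in HOXA13 and 13 in HOXA11. Entries of 1 gene and of neighbours can share sequence, so these shares are descriptions. They do not cover all clusters, since no HOXB gene had an entry. Of the HOXC genes only HOXC4 and HOXC5 had an entry, and theirs was the same window.

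The targeted genes and the depth were examined before the HOX genes. KDM1A stood at 25.98 FPKM in the shLSD1 line without Dox and at 6.29 FPKM with Dox, and EHMT2 at 7.85 and 4.76 FPKM in the shG9a line. The ratio of treated over control reads was 0.242 (95% interval 0.221 to 0.265) for KDM1A and 0.607 (0.547 to 0.673) for EHMT2, so both fell in their own line, EHMT2 by less. KDM1A was also higher with Dox in the shG9a line (26.4 and 35.8 FPKM), and EHMT2 was lower with SP2509+UNC0642 than with vehicle (5.38 and 11.1 FPKM). Library totals estimated from the steps of the FPKM values ran from 15662035 to 17889466 reads. All 9 squamous and epithelial markers examined (among them KRT5, TP63, KRT17 and CDH1) reached 1 FPKM in at least 1 library. So did 1 of 4 mesenchymal markers (COL1A1, with VIM at most 0.174 and COL1A2 at most 0.0108 FPKM), 1 of 2 endothelial markers (CDH5, with PECAM1 at most 0.569 FPKM), 1 of 4 columnar markers (KRT20) and none of 3 leukocyte markers (PTPRC at most 0.0425 FPKM). The squamous sum moved with the conditions, from 1084 FPKM in vehicle cells to 4874 (SP2509), 1454 (UNC0642) and 1078 (both), and with Dox from 2187 to 599.6 FPKM in shLSD1 and from 2021 to 732.6 FPKM in shG9a cells. Much of this was the keratin KRT17, at 324.2 FPKM in vehicle cells and 3716 with SP2509, and with Dox it went from 1737 to 265.1 FPKM in shLSD1 and from 1596 to 158.2 FPKM in shG9a cells. The 9 markers did not move together, since 6 were called higher and 1 lower with SP2509, 1 and 2 of the 8 that passed in the shLSD1 line, and 4 and 2 in the shG9a line, where KRT5 (177.5 and 311.8 FPKM) and SOX2 (5.99 and 38.8 FPKM) were higher. The summed mesenchymal, endothelial, columnar and leukocyte markers ran from 2.98 to 5.63, from 3.28 to 14.0, from 0.0400 to 1.43 and from 0 to 0.117 FPKM over the 8 libraries. Their part in the HOX results was not tested, and in bulk RNA fewer cells expressing a gene and less RNA per cell cannot be told apart.

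A HOX gene was called higher or lower when the fold of (FPKM + 1) was at least 1.3, when it had at least 1 FPKM in at least 1 of the 2 libraries, and when the 95% exact interval of its read ratio left out 1. Intervals are from whole reads recovered from the FPKM values and cover counting error only, with no spread between cultures and no allowance for PCR copies or for the number of genes examined. Each comparison is thus between 2 libraries. The only look at the difference between libraries that got no treatment was the pair of uninduced lines, which carry different hairpins and are not replicates. There, 14 of 33 HOX genes passed the filter, and none was called higher in the shG9a line (background over all genes 1.26%) and 2 were called lower (background 2.07%), HOXA7 at 1.15 FPKM in shLSD1 -Dox and 0.627 in shG9a -Dox, and HOXC9 at 2.35 and 1.40 FPKM.

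The summed HOX FPKM moved in opposite directions in the 2 arms. It was 65.86 in vehicle cells, 31.82 with SP2509, 42.25 with UNC0642 and 42.95 with SP2509+UNC0642. In the shLSD1 line it was 56.69 without and 96.73 with Dox, and in the shG9a line 54.15 and 101.6. Thus each inhibitor library lay below its control, and each +Dox library above. The ratio of summed HOX reads was 0.455 (0.426 to 0.485) for SP2509, 0.632 (0.596 to 0.670) for UNC0642, 0.635 (0.598 to 0.674) for the combination, 1.70 (1.62 to 1.78) for Dox in the shLSD1 line and 1.87 (1.78 to 1.97) for Dox in the shG9a line. Between the uninduced lines it was 0.953 (0.900 to 1.01). The tables were normalized separately, and levels were compared only within a table.

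**Figure D2:**
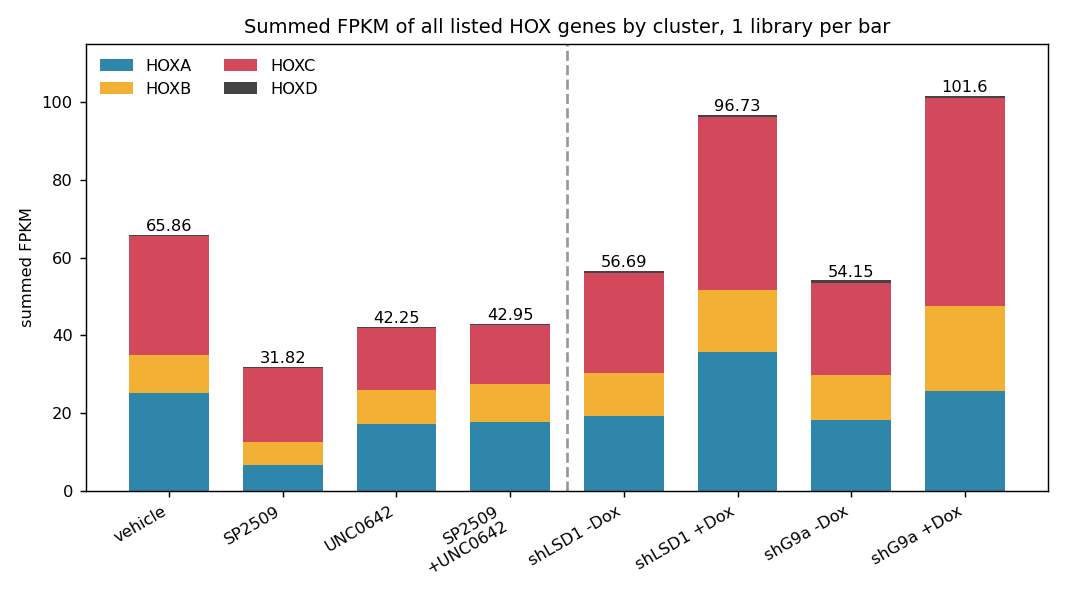
Summed FPKM of all listed HOX genes (y axis), stacked by cluster, with 1 bar per library and a dashed line between the 2 tables. The sum falls from 65.86 with vehicle to 31.82 with SP2509 and rises from 54.15 to 101.6 with Dox in the shG9a line, and HOXD is barely visible in any bar.

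By cluster, the drop with SP2509 was steepest for HOXA (25.1 to 6.595 FPKM, read ratio 0.279, 0.248 to 0.314) and smaller for HOXC (30.6 to 19.0 FPKM, read ratio 0.618, 0.565 to 0.677). With UNC0642 this order was turned, with 0.519 (0.472 to 0.570) for HOXC and 0.679 (0.622 to 0.740) for HOXA. HOXC13 alone held 705 of 1175 HOXC reads with vehicle and 346 of 696 with UNC0642, so this HOXC ratio leans on a single gene. Whether the order was turned without HOXC13 was not tested. HOXB reads were lower with SP2509 (0.498, 0.416 to 0.595) and not distinguishable from vehicle in the combination (0.965, 0.831 to 1.12). The combination sum holds opposite changes, since HOXB9 went from 9 to 113 reads and HOXB7 was lower (0.700, 0.548 to 0.893). With Dox in the shLSD1 line HOXA and HOXC rose by like ratios of 1.75 (1.62 to 1.90) and 1.75 (1.63 to 1.88), and HOXB by 1.49 (1.31 to 1.68). In the shG9a line HOXC (2.28, 2.11 to 2.45) and HOXB (2.19, 1.95 to 2.47) rose by more than HOXA (1.35, 1.24 to 1.47). HOXD had 24 reads or fewer in every library, and its ratios could not be told from 1 in any comparison.

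In the shLSD1 line with Dox, HOX genes of all 3 expressed clusters were called higher. Of 33 listed HOX genes 18 passed the filter, 4 of them only through the +Dox library and 1 only through the control, and 12 were called higher (background 22.4%) and none lower (background 10.4%). The median log2 fold of (FPKM + 1) was 0.45 over the HOX genes that passed and 0.13 over all 12970 genes tested. In the shG9a line with Dox, 20 HOX genes passed, 8 of them only through the +Dox library, and 18 were called higher (background 29.9%) and 1 lower (background 15.7%), with medians of 0.84 and 0.18. A gene that passed only through the +Dox library had to be higher there. Genes of 5 FPKM or more in both were also shifted upward, by a median of 0.11 (shLSD1) and 0.14 (shG9a) on the log2 scale. After centring on this shift, 6 HOX genes instead of 12 were called higher in the shLSD1 line (among them HOXA5, HOXA9, HOXC6, HOXC11 and HOXC13) and 15 instead of 18 in the shG9a line. The calls lost were those of HOXA7, HOXA11, HOXB3, HOXB4, HOXB7 and HOXC10 in the shLSD1 line and those of HOXA9, HOXA11 and HOXA13 in the shG9a line. The shLSD1 line thus had no HOXB call left after centring. No share over all genes is given for these centred counts, so whether HOX calls shrank more than those of other genes was not tested.

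The 2 Dox comparisons share no library. Of 17 HOX genes that passed in both, 11 (64.7%) were called higher in both, against 12.8% of 12325 genes that passed in both. After centring both, 4 (23.5%) were, namely HOXA5, HOXC6, HOXC11 and HOXC13, against 7.18% of all genes. The 11 before centring were HOXA5, HOXA7, HOXA9, HOXA11, HOXB3, HOXB4, HOXB7, HOXC6, HOXC10, HOXC11 and HOXC13. Of these, HOXA11, HOXB3, HOXB4 and HOXC6 passed in both lines only through the +Dox library. HOXA7 did so in the shG9a line. The filter thus fixed their direction there, which holds for HOXC6 after centring too. Dox itself was given in both.

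**Figure D3:**
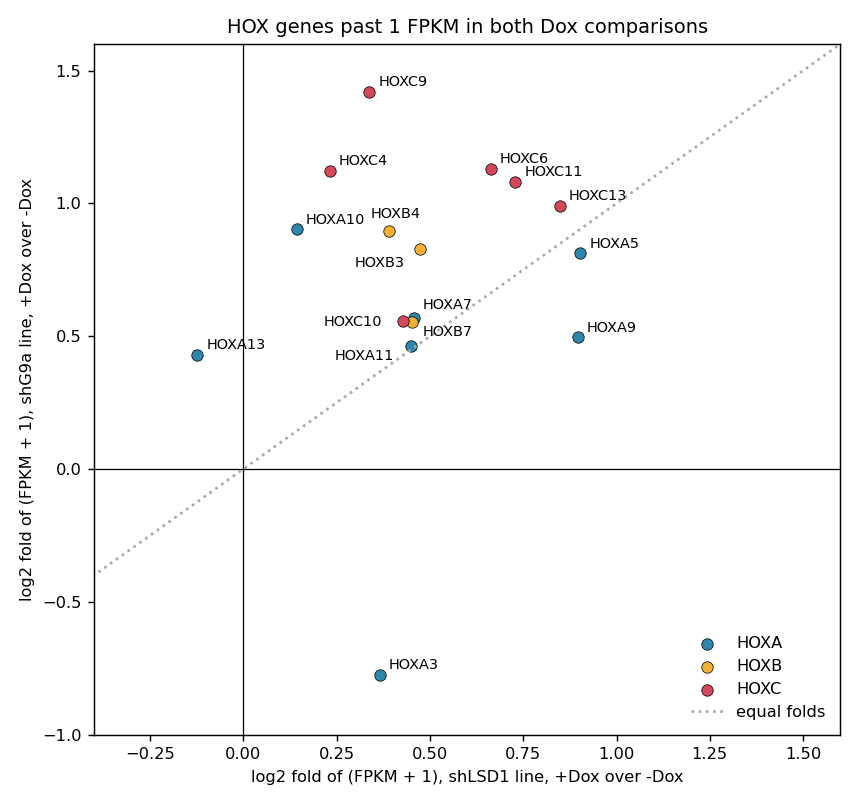
Log2 fold of (FPKM + 1) with Dox in the shLSD1 line (x axis) against that in the shG9a line (y axis) for 16 HOX genes that passed the filter in both, coloured by cluster, with a dotted line of equal folds. HOXC9 lies at the top (0.34 and 1.42), HOXA5 far to the right (0.90 and 0.81), and HOXA3 is the only point below 0 on the y axis (0.37 and -0.77).

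In the HOXA cluster, HOXA9 (ENSG00000078399, chr7:27162435-27175180), a posterior gene best known from leukemia, went from 5.52 to 11.1 FPKM in shLSD1 and from 6.05 to 8.94 FPKM in shG9a cells, with read ratios of 2.02 (1.75 to 2.33) and 1.48 (1.28 to 1.71). HOXA5, which acts in lung development, went from 1.91 to 4.45 FPKM (2.33, 1.70 to 3.22) and from 1.84 to 3.99 FPKM (2.17, 1.55 to 3.06). HOXA7 went from 1.15 to 1.94 FPKM (1.70, 1.18 to 2.47) and from 0.627 to 1.41 FPKM (2.25, 1.39 to 3.76), the uninduced level being lower in the shG9a line. HOXA11 went from 0.513 to 1.06 FPKM (2.08, 1.21 to 3.68) and from 0.524 to 1.10 FPKM (2.10, 1.21 to 3.76), on 20 to 44 reads. HOXA5, HOXA7, HOXA9 and HOXA11 were thus higher in the +Dox library of each line, but after centring only HOXA5 of these was called in both.

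The other HOXA genes did not move alike. HOXA10, which acts in the uterus, went from 1.04 to 2.82 FPKM in shG9a cells (2.70, 2.02 to 3.65) and had 1.23 and 1.46 FPKM in shLSD1 cells (1.19, 0.875 to 1.62). HOXA13, the most posterior gene of the cluster, which acts in limb and genital development, went from 1.34 to 2.16 FPKM in the shG9a line (1.61, 1.27 to 2.04) and had 1.26 and 1.08 FPKM in the shLSD1 line (0.854, 0.644 to 1.13). HOXA3 (ENSG00000105997, chr7:27106184-27152581), which patterns the pharyngeal pouches, was the 1 HOX gene called lower, from 2.61 to 1.11 FPKM in the shG9a line (0.426, 0.325 to 0.555). In the shLSD1 line HOXA3 had 2.90 and 4.03 FPKM, a ratio of 1.39 (1.16 to 1.66) whose fold of (FPKM + 1) stayed under 1.3. HOXA2 had 0.984 and 0.305 FPKM in the shG9a line, below the filter. Thus in the shG9a line HOXA2 and HOXA3 had lower values, while the HOXA genes from HOXA5 to HOXA13 that passed were all called higher, HOXA9, HOXA11 and HOXA13 not after centring.

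In the HOXB cluster, HOXB7 was the only member with at least 1 FPKM in all 8 libraries and went from 8.37 to 11.8 FPKM in shLSD1 cells (1.41, 1.19 to 1.68) and from 9.38 to 14.2 FPKM in shG9a cells (1.52, 1.29 to 1.79). Genes on its anterior side were much lower than HOXB7 itself. HOXB6 (ENSG00000108511, chr17:48595751-48604992) had 0.0929 FPKM (4 reads) in shG9a -Dox and 1.33 FPKM (60 reads) in shG9a +Dox, a ratio of 14.3 with a wide interval of 5.31 to 54.3. In the shLSD1 line it had 0.0433 and 0.307 FPKM, below the filter. HOXB5 had 0.207 and 1.33 FPKM in the shG9a line (7 and 47 reads, 6.41, 2.88 to 16.8) and 0.359 and 0.532 FPKM in the shLSD1 line. HOXB4, a regulator of blood stem cells, went from 0.338 to 1.49 FPKM in the shG9a line (4.41, 2.73 to 7.45) and from 0.645 to 1.16 FPKM in the shLSD1 line (1.79, 1.22 to 2.67). HOXB3 went from 0.714 to 2.04 FPKM in shG9a (2.86, 2.24 to 3.69) and in shLSD1 cells from 0.763 to 1.45 FPKM (1.90, 1.48 to 2.44). In the shG9a line the 4 contiguous genes from HOXB3 to HOXB6 passed only through the +Dox library, so the filter fixed their direction. HOXB9, which lies inside the annotated span of HOXB7, stood apart with lower values in both +Dox libraries, 0.458 and 0.133 FPKM in the shLSD1 line and 0.632 and 0.179 FPKM in the shG9a line, all below the filter.

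In the HOXC cluster, the 7 genes that passed in the shG9a line were called higher there (background 29.9%), HOXC6 and HOXC8 having passed only through the +Dox library. HOXC9 (ENSG00000180806, chr12:53994895-54003337) had the largest fold of (FPKM + 1) of any HOX gene there, from 1.40 to 5.43 FPKM (ratio 3.87, 2.71 to 5.64), but its uninduced level was lower than in the shLSD1 line, where it had 2.35 and 3.23 FPKM. HOXC4 went from 1.13 to 3.64 FPKM (3.22, 2.34 to 4.49), HOXC6 from 0.820 to 2.98 FPKM (3.64, 2.64 to 5.11) and HOXC8 from 0.256 to 1.25 FPKM (4.89, 2.27 to 12.1), these being central genes with roles in the trunk skeleton. In shLSD1 cells HOXC6 went from 0.589 to 1.52 FPKM (2.58, 1.74 to 3.88), whereas HOXC4 (1.65 and 2.12 FPKM) and HOXC8 (0.328 and 0.907 FPKM) were not called. Among posterior genes, HOXC10 rose from 4.95 to 7.01 FPKM (1.42, 1.18 to 1.70) in shLSD1 and from 4.82 to 7.58 FPKM (1.57, 1.31 to 1.90) in shG9a cells. HOXC11 rose from 2.38 to 4.601 FPKM (1.93, 1.57 to 2.39) and from 2.39 to 6.17 FPKM (2.58, 2.11 to 3.19). HOXC13 had ratios of 1.86 (1.68 to 2.06) and 2.06 (1.86 to 2.30), so that its 2 intervals overlapped.

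Next, the inhibitors were compared with vehicle. These 3 comparisons share the vehicle library, so their values are given side by side and not as independent evidence. With SP2509, 12 of 37 HOX genes passed the filter, 5 of them only through the vehicle library, and 10 were called lower (background 37.3%) and none higher (background 18.1%). With UNC0642, 13 passed, 1 only through the vehicle library and 1 only through the treated library. Of them 7 were called lower (background 13.8%) and none higher (background 15.6%). With SP2509+UNC0642, 13 passed, 3 only through the vehicle library and 1 (HOXB9) only through the treated library. Of them 8 were called lower (background 28.9%) and 2 higher (background 28.9%). A gene that passed only through 1 library had to be higher there, so the filter fixed its direction. The median log2 folds of the HOX genes that passed were -0.84, -0.39 and -0.58, beside -0.21, -0.01 and -0.02 over all genes tested. Without the filter on low values, 17 HOX genes instead of 10 were called lower with SP2509, the added ones being HOXA6, HOXA10, HOXB3, HOXB4, HOXB5, HOXB6 and HOXC6. The share over all genes without the filter is not given, so this count has no background beside it.

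**Figure D4:**
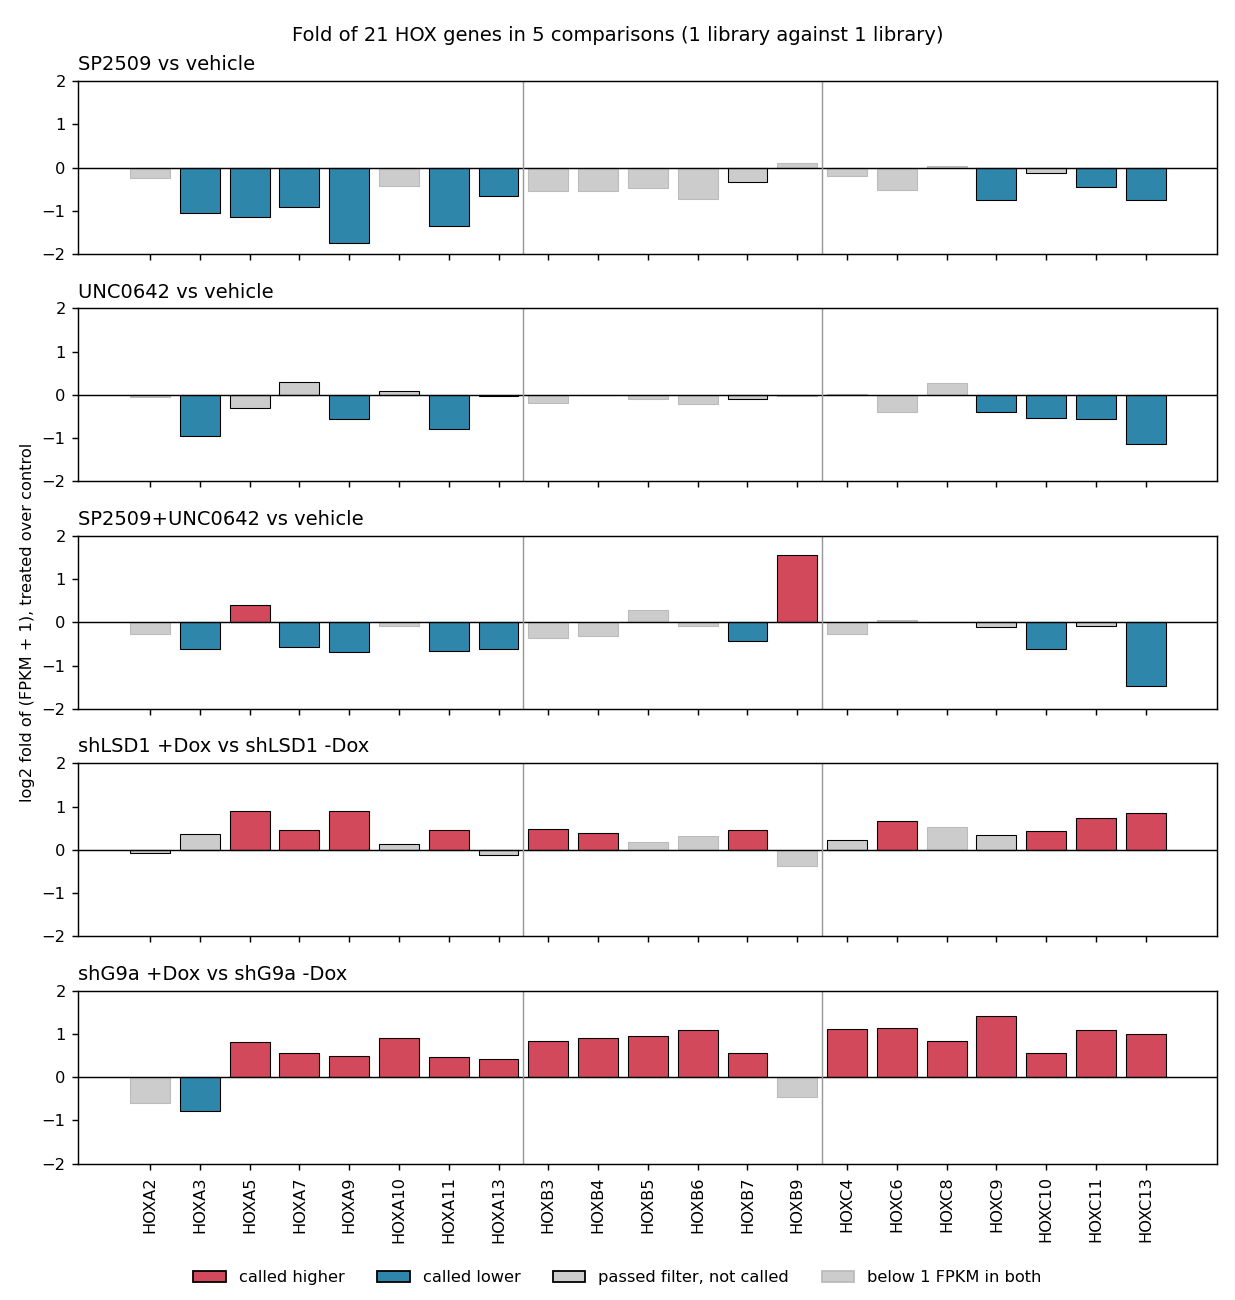
Log2 fold of (FPKM + 1), treated over control (y axis), for 21 HOX genes in cluster order in each of 5 comparisons. Called genes are in colour and all others in grey, with a pale outline on those below 1 FPKM in both libraries. HOXA bars point down with SP2509, bars from HOXB3 to HOXB7 and those of HOXC point up with Dox in the shG9a line, and HOXB9 reaches 1.56 in the combination.

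In the HOXA cluster, HOXA9 had 9.42 FPKM in vehicle cells, 2.10 with SP2509, 6.09 with UNC0642 and 5.50 with both, and was lower than vehicle in the 3 treated libraries, with read ratios of 0.222 (0.179 to 0.274), 0.646 (0.559 to 0.747) and 0.583 (0.501 to 0.679), the change with SP2509 being the largest. HOXA11 (ENSG00000005073, chr7:27181510-27185223), a posterior gene of limb and uterus, had 1.80 FPKM (65 reads) with vehicle and 0.0974 FPKM (4 reads) with SP2509, which was 18.5 times lower (6.88 to 69.8). Its values with UNC0642 and with both were 0.630 FPKM (ratio 0.350, 0.213 to 0.560) and 0.770 FPKM (0.428, 0.268 to 0.670), also called lower. HOXA3 had 3.92, 1.37, 1.53 and 2.23 FPKM in the 4 libraries with ratios of 0.350 (0.276 to 0.440), 0.391 (0.312 to 0.488) and 0.569 (0.465 to 0.695). HOXA5 was lower with SP2509, at 2.39 and 0.526 FPKM (0.220, 0.119 to 0.385). With UNC0642 it had 1.74 FPKM and was not called, with a ratio of 0.725 (0.494 to 1.06). HOXA7 had 1.19, 0.163, 1.69 and 0.467 FPKM, with a ratio of 0.137 (0.0521 to 0.306) for SP2509, 1.42 (0.966 to 2.11) for UNC0642 and 0.392 (0.216 to 0.683) for both. HOXA13 had 1.32, 0.464, 1.297 and 0.512 FPKM, with 0.352 (0.240 to 0.508), 0.984 (0.750 to 1.29) and 0.389 (0.267 to 0.558). Both genes were thus low in the 2 libraries that held SP2509 and not called with UNC0642 alone. The printed promoters are those of HOXA7, HOXA9, HOXA11 and HOXA13.

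In the HOXC cluster, HOXC13 was lower with SP2509 (0.573, 0.508 to 0.645), lower still with UNC0642 (0.430, 0.377 to 0.489) and lowest with both (0.324, 0.279 to 0.375). HOXC10 had 5.12 FPKM in vehicle cells, 4.602 with SP2509, 3.24 with UNC0642 and 3.02 with both, and was called lower in the UNC0642 library (0.632, 0.503 to 0.793) and in the combination (0.590, 0.465 to 0.747). HOXC11 had 2.31, 1.43, 1.25 and 2.11 FPKM, and HOXC9 had 2.28, 0.937, 1.498 and 2.05 FPKM. For HOXC11 the ratios were 0.619 (0.462 to 0.826) with SP2509 and 0.542 (0.399 to 0.731) with UNC0642, and for HOXC9 0.410 (0.252 to 0.653) and 0.657 (0.436 to 0.983). Both were called lower with each inhibitor, HOXC11 with SP2509 only before centring, and not in the combination, with 0.912 (0.700 to 1.19) and 0.897 (0.614 to 1.31). HOXC4, HOXC6 and HOXC8 stayed below 1 FPKM in all inhibitor libraries (0.317 to 0.971 FPKM).

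In the combination 2 HOX genes were called higher. HOXB9 (ENSG00000170689, chr17:48621159-48626356), a posterior gene with roles in the thoracic skeleton and mammary gland, had 0.223 FPKM (9 reads) in vehicle cells, 0.305 with SP2509, 0.195 with UNC0642 and 2.59 FPKM (113 reads) with both, a ratio of 11.7 (5.92 to 26.1). It was thus high in 1 library of 8. HOXA5 had 2.39 FPKM with vehicle and 3.51 with both (1.46, 1.06 to 2.03), a call that was lost after centring. HOXB7 had 6.64, 5.11, 6.11 and 4.65 FPKM and was called lower in the combination (0.700, 0.548 to 0.893), so that neighbouring HOXB7 and HOXB9 went in opposite directions there. HOXB3 to HOXB6 stayed below 1 FPKM with vehicle (0.501 to 0.809 FPKM) and at 0.0826 to 0.135 FPKM with SP2509.

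Silencing and inhibition of the same enzyme, which share no library, gave opposite directions for some HOX genes. Of 12 HOX genes that passed in both the shLSD1 and the SP2509 comparison, 7 (58.3%) were called higher with Dox and lower with SP2509, a pattern seen in 13.4% of all 11769 genes that passed in both. Among them were HOXA5, HOXA7, HOXA9, HOXA11, HOXC11 and HOXC13. HOXA5, HOXA7 and HOXA11 passed with SP2509 only through the vehicle library, so they could only be lower with SP2509. HOXA11 also passed in the shLSD1 line only through the +Dox library, so the filter fixed its whole pattern. After centring both comparisons 4 (33.3%) were left, among them HOXA5, HOXA9 and HOXC13, against 8.22% of all genes. Of 13 that passed in both the shG9a and the UNC0642 comparison, 6 (46.2%) were called higher with Dox and lower with UNC0642, against 3.21% of 11906 genes, namely HOXA9, HOXA11, HOXC9, HOXC10, HOXC11 and HOXC13. Here too HOXA11 passed only through the +Dox and the vehicle library, so the filter fixed its pattern. After centring the 4 HOXC genes (30.8%) were left, against 2.20% of all genes. HOXA3 was lower in both (7.69% of the 13 against 3.49% of all genes).

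The noncoding RNAs of the clusters are transcribed between or antisense to HOX genes. Of 20 on the list, 18 were listed and 7 reached 1 FPKM. HOXC13-AS, antisense to HOXC13, had 10.1 FPKM in vehicle cells, 1.68 with SP2509, 4.57 with UNC0642 and 0.799 with both, and went from 5.52 to 21.9 FPKM and from 4.94 to 16.6 FPKM with Dox in the shLSD1 and shG9a lines. It was called in the direction of HOXC13 in all 5 comparisons. Its ratios were 3.96 (3.28 to 4.81) and 3.37 (2.73 to 4.18) with Dox, 0.166 (0.116 to 0.231) with SP2509, 0.451 (0.357 to 0.568) with UNC0642 and 0.0791 (0.0467 to 0.126) with both inhibitors. HOTAIR, antisense to HOXC11 and known for binding Polycomb proteins, had 1.84, 0.410, 0.795 and 0.250 FPKM in the inhibitor libraries and went from 1.07 to 3.75 FPKM in the shG9a line (3.51, 2.52 to 4.97), whereas in the shLSD1 line it had 1.58 and 2.26 FPKM. HOXA-AS2, which overlaps HOXA3, went from 1.49 to 2.60 FPKM in shLSD1 cells and stood at 1.02 FPKM in vehicle cells and 0.191 with SP2509. HOXB-AS4, which overlaps HOXB7, had 0 reads with vehicle and 12 reads (1.06 FPKM) in the combination, at least 3.71 times higher when vehicle is set to 3 reads, and it was not listed in the shRNA table.

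Over all genes tested, the shares called higher and lower were 18.1% and 37.3% with SP2509, 15.6% and 13.8% with UNC0642, 28.9% and 28.9% with both, 22.4% and 10.4% with Dox in the shLSD1 line and 29.9% and 15.7% in the shG9a line. The counts of noncoding RNAs, cofactors, regulators and flanking genes rest on small lists and are given beside these shares as descriptions. Of 5 noncoding RNAs that passed with each inhibitor or with Dox and 7 with both inhibitors, 3 were called lower with SP2509, 2 with UNC0642 and 4 with both, where 2 were higher. With Dox 2 were called higher in the shLSD1 line and 3 in the shG9a line, and none lower, although after centring 1 (HOTAIRM1) was lower in the shG9a line. Since the sources used here do not state whether reads were counted by strand, reads of a gene and its antisense partner cannot be told apart. Of the 37 HOX genes 32 overlapped another listed gene and 25 a gene of the opposite strand. HOXA3, HOXB3, HOXB7, HOXC4 and HOXC6 span other HOX genes, and their values may hold reads of those neighbours.

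Among the 9 HOX cofactors (PBX, MEIS and PKNOX genes), PBX2, the most abundant cofactor, was lower with SP2509 (9.85 and 6.97 FPKM) and higher with Dox in the shG9a line (9.21 and 12.7 FPKM). MEIS2 was lower with SP2509 (1.44 and 0.328 FPKM) and with UNC0642 (0.864 FPKM), and higher with Dox in the shLSD1 line (0.741 and 1.28 FPKM). In the combination PBX3 (0.620 and 2.08 FPKM) and MEIS3 (0.137 and 1.295 FPKM) were higher than vehicle, as HOXB9 was, while PBX2, MEIS1 and MEIS2 were lower. PKNOX1 was higher with Dox in the shLSD1 line (1.43 and 2.30 FPKM), and PBX4 was higher with SP2509 (0.50 and 1.72 FPKM). Counts of cofactors called higher and lower were 1 and 3 with SP2509, 0 and 3 with UNC0642, 2 and 4 with both, 3 and 0 in the shLSD1 line and 2 and 0 in the shG9a line, among 5 to 7 that passed. After centring PBX2 was no longer called with SP2509 or in the shG9a line, nor MEIS2 and PKNOX1 in the shLSD1 line, so that 1 call was left in each line.

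Of 19 regulators of the HOX clusters on the list, 17 were listed and 16 reached 1 FPKM, while CDX2 had at most 0.0144 FPKM. Of 16 that passed in each comparison, with Dox 2 were called higher and 1 lower in the shLSD1 line (after centring 0 and 3), and 3 higher and 1 lower in the shG9a line (after centring 2 and 2). In the shLSD1 line the Polycomb genes EZH2 (8.96 and 12.0 FPKM) and EED (4.03 and 5.56 FPKM) were higher and the histone methyltransferase DOT1L (6.64 and 4.78 FPKM) was lower. In the shG9a line MEN1, a partner of KMT2A (14.0 and 21.6 FPKM), CBX8 (4.22 and 6.02 FPKM) and GMNN (8.11 and 15.3 FPKM) were higher. With SP2509, 8 were lower, among them MEN1 (15.0 and 6.47 FPKM), CTCF, which insulates chromatin domains (26.3 and 11.01 FPKM), and the Polycomb genes EZH2 (19.1 and 11.6 FPKM) and CBX2 (6.70 and 2.17 FPKM), and 3 were higher, KMT2A (4.47 and 7.33 FPKM) and the demethylases KDM6A (12.4 and 39.2 FPKM) and KDM6B (6.64 and 9.04 FPKM). With UNC0642, 4 were higher and 2 lower, and with both 4 were higher and 4 lower, with KDM6B at 27.9 FPKM and DOT1L at 11.6 FPKM (4.26 in vehicle cells). MEN1 was called in the direction of the HOX sums in 2 comparisons (shG9a and SP2509) and EZH2 in 3 (SP2509, UNC0642 and, before centring only, shLSD1). They were not alone in this, since EED (SP2509 and, before centring only, shLSD1) and CTCF (SP2509 and the combination) also matched. Others were called against the sums, such as KDM6B with each inhibitor and with both, and DOT1L with UNC0642, with both and in the shLSD1 line. The part of the regulators in the HOX results was not tested.

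Finally, the genes outside the clusters were examined, taking the nearest 2 protein-coding genes with at least 1 FPKM on each side of each cluster. These 16 genes passed the filter in each comparison. Called higher and lower were 3 and 5 of them with SP2509, 1 and 2 with UNC0642, 1 and 7 with both, 2 and 2 with Dox in the shLSD1 line and 4 and 2 in the shG9a line (after centring 1 and 2, and 2 and 3). Their median log2 folds were 0.05, 0.02, -0.26, 0.09 and 0.24, beside -0.84, -0.39, -0.58, 0.45 and 0.84 for the HOX genes that passed. The 2 sets are not alike, because the flanking genes had at least 1 FPKM in both libraries of each comparison. Of the HOX genes, 5 of 12 with SP2509 and 8 of 20 in the shG9a line passed only through the library where they were higher. The filter fixed the direction of those genes, so the gap between the medians is in part built in. SKAP2, 97.8 kb from the HOXA cluster, had 10.4 FPKM with vehicle and 17.3 with SP2509, the opposite direction to the HOXA genes. On the other side of that cluster, 1 flanking gene was called lower with SP2509, with UNC0642 and with both. SMUG1, 65.2 kb from the HOXC cluster, was lower with SP2509 (4.76 and 2.48 FPKM), as HOXC genes were. CALCOCO2, 101.8 kb from the HOXB cluster, went down from 10.8 to 7.41 FPKM with Dox in the shG9a line, where HOXB genes went up. ATP5G1, 163.6 kb from the HOXB cluster, moved with the HOX sums except with UNC0642. It was lower with SP2509 (19.83 and 10.4 FPKM) and higher with Dox in the shG9a line (12.55 and 28.18 FPKM). With UNC0642 it went the other way (22.83 FPKM, ratio 1.15, 1.05 to 1.26), although it was not called. LNPK, 90.1 kb from the nearly silent HOXD cluster, went down in both lines, from 3.37 to 1.25 and from 3.002 to 1.43 FPKM.

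**Figure D5:**
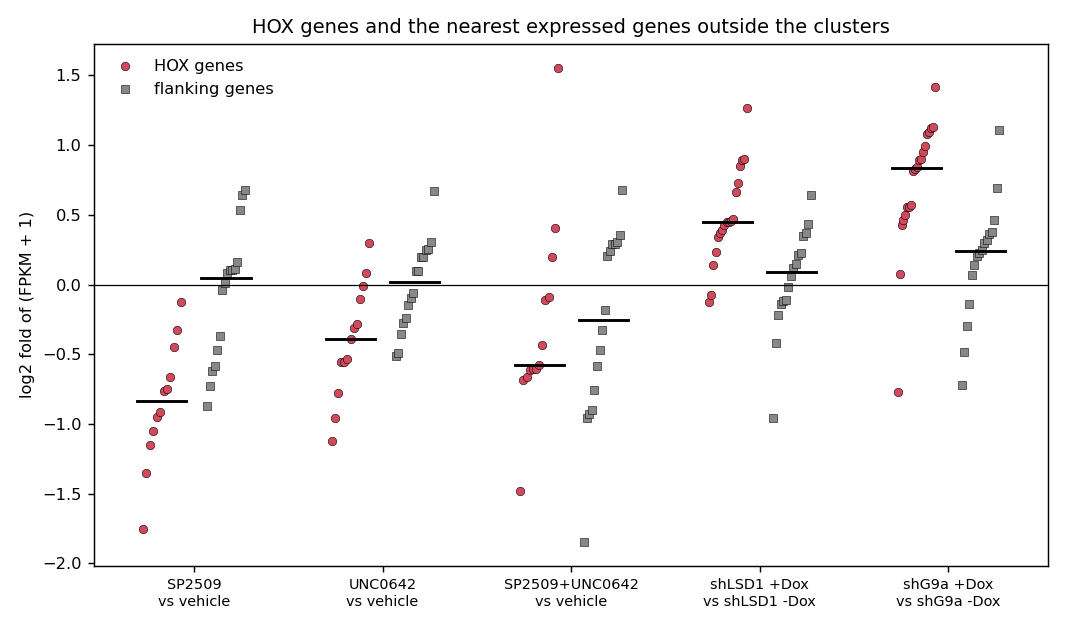
Log2 fold of (FPKM + 1) (y axis) of the HOX genes that passed the filter (circles) and of the 16 nearest expressed genes outside the clusters (squares) in 5 comparisons, with a black line at each median. With Dox in the shG9a line the median is 0.84 for HOX genes and 0.24 for flanking genes, and the 2 sets of points overlap in every comparison. There 8 of 20 HOX genes passed only through the +Dox library, while the flanking genes had at least 1 FPKM in both libraries.

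The 15 HOX genes below 1 FPKM had at most 57 reads in any library. HOXB13, a prostate and colon gene at the far end of the HOXB cluster, ranged from 0.154 to 0.949 FPKM and was highest in shG9a +Dox, as were HOXA6 (0.584 FPKM) and HOXB2 (0.346 FPKM). In that line the read ratio of HOXB13 was 3.40 (1.93 to 6.35), with values of 0.279 and 0.949 FPKM. HOXA4, HOXB8, HOXC5, HOXC12 and the 8 HOXD genes had at most 18 reads and 0.386 FPKM. Among them the interval of the read ratio left out 1 for HOXC12 with SP2509 and with UNC0642 (5 reads and 0 in each) and for HOXD8 with SP2509 (7 reads and 1) and with Dox in the shLSD1 line (18 reads and 7), each time downward.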

How the data were processed

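RNA-seq of 8 Kyse510 libraries was analysed from 2 deposited tables, 1 for the inhibitor and 1 for the shRNA libraries. The values are FPKM computed by the authors from reads cleaned of adapters and mapped to GRCh38 with an Ensembl annotation, each table separately. The aligner, the counter and the strand setting are not given in the sources used here. Samples were grouped by their GEO labels.

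Whole reads and gene lengths were recovered from the steps of the FPKM values, which gave whole reads, within the rounding of the deposited values, for 31578 of 31582 and 28939 of 28942 genes. The recovered totals of 15662035 to 17889466 reads set the width of the intervals. Ratios have exact Clopper-Pearson intervals at the 95% level, given the totals. The steps were tested on simulated data. Each condition had 1 library, so no p-value was computed, and differences are between libraries, with the spread between cultures unknown. Folds were taken on FPKM + 1, which understates those of low genes. A gene at 0 reads was set to 3 reads for a bound.

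HOX genes with at least 1 FPKM in at least 1 library were named with values, and genes of the lists (cofactors, noncoding RNAs, regulators, flanking genes and cell type markers) were counted whole, with values for members called in a comparison. HOXB13, HOXA6, HOXB2, HOXC12, HOXD8 and HOTAIRM1 were named outside this rule after their values were seen. Some members of these sets are not reported here by name. The members and lists were chosen with earlier results of these data known. Alternatives were another pseudocount, no filter, a higher fold, centring, fewest reads per gene, no interval and a shared control. Promoters came from RefSeq (GRCh38.p14). Python 3.11.15, pandas 2.3.3, numpy 2.4.6, scipy 1.17.1 and matplotlib 3.10.9 were used.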

Additional observations from a re-analysis of the deposited data

Results flagged for a closer look

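The folds of HOXA3 and HOXA13 with Dox had opposite signs in the 2 hairpin lines, although neither gene was called in the shLSD1 line. For HOXA3 the log2 fold of (FPKM + 1) was 0.37 in the shLSD1 line and -0.77 in the shG9a line, a difference (shLSD1 minus shG9a) of 1.14. For HOXA13 it was -0.12 and 0.43, a difference of -0.55. With 1 library a condition neither difference was tested. HOXA3 spans HOXA4, HOXA5 and HOXA6 and overlaps the antisense RNAs HOXA-AS2 and HOXA-AS3, so its value may hold reads of these genes.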

How the results depend on the processing

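No called HOX gene turned its direction under any alternative tried. For regulators in the shLSD1 line and flanking genes in the shG9a line, centring left more genes called lower than higher, the reverse of the uncentred counts. With a fold threshold of 2, the HOX genes called were 4 (SP2509, lower; 10 in the report), 1 (UNC0642, lower), 1 higher and 1 lower (combination), 1 (shLSD1, higher), 5 higher and 0 lower (shG9a) and 0 (uninduced lines, lower). Without the filter on low values, 17 were lower with SP2509 and 3 with Dox in the shG9a line. Centred on the median of genes with 5 FPKM or more, 6 were higher in the shLSD1 line and 1 in the combination. No share over all genes is given beside these counts, so they are descriptions. With the mean of both uninduced libraries as control, 2 were lower in the shG9a line, and HOXA7 (shG9a) and HOXB7 (shLSD1) were no longer called. A pseudocount of 0.1 FPKM, the fewest reads per gene and the fold without the interval left each HOX count within 1.5 times. Centring both comparisons left 4 of 11 HOX genes higher with Dox in both lines, 4 of 7 higher in shLSD1 and lower with SP2509, and 4 of 6 higher in shG9a and lower with UNC0642. The alternatives for the uninduced lines, the summed reads and these shared calls were chosen after seeing the data. The ratio of summed HOX reads, after centring, was 0.485 (SP2509), 1.57 (shLSD1) and 1.70 (shG9a). Without HOXC13 it was 0.414 (SP2509), 0.702 (UNC0642) and 0.743 (combination). No paired analysis was possible because each condition had 1 library, and no library could be left out for the same reason. Counting error is the only error these data give, and it is wide for HOXA7, HOXA11, HOXB5, HOXB6, HOXB9 and HOXC8, which had fewer than 10 reads in 1 library of a called comparison.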
